A study of Mus musculus with 6 samples.

Results

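Kit and Kitl are a receptor and its ligand, and they were read here in RNA labelled as from spermatogonia of wild-type (WT) mice and of mice with a knockout of Zfp145 (Null). Zfp145 is now named Zbtb16 and encodes PLZF, a zinc finger protein that represses transcription. The members were the probe sets whose single gene symbol in the platform annotation is Kit or Kitl. This gave 2 genes of the 15964 with a symbol on the U74Av2, U74Bv2 and U74Cv2 chips, and 2 of the 36701 probe sets. Kit had probe set 99956_at and Kitl had probe set 99577_at, both on U74Av2. Neither gene had a probe set on U74Bv2 or U74Cv2, and no probe set with several symbols held either name.

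All mice were 1 week old, and the labels give a mixed background of 129sv and C57Bl/6 for both genotypes. WT and Null were each hybridised to 1 array of each chip, 6 arrays in all. Kit and Kitl therefore rest on 1 WT array and 1 Null array, with no replicate, no second probe set and no test. Which exons of Zfp145 were disrupted, how the cells were isolated and how many animals gave RNA are not in the labels.

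Kit is a receptor tyrosine kinase of the cell surface. Kitl, also called stem cell factor, is made as a membrane-bound protein that proteases can shed. Binding of the ligand pairs receptor molecules, which then signal through PI3K and AKT, through RAS and the MAP kinases, and through STAT proteins, until phosphatases, ubiquitin ligases and SPRED and Sprouty proteins damp the signal. In the postnatal testis Sertoli cells are the main source of Kitl. Undifferentiated spermatogonia carry little Kit, and the receptor appears as spermatogonia start to differentiate under retinoic acid. PLZF marks the undifferentiated cells and is known to repress Kit. Leydig cells and mast cells also carry Kit.

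Because the disrupted gene encodes a DNA-binding repressor, the bases just before the start site of each member are shown. They come from RefSeq (GRCm38.p6), forward strand, at chr5:75574737-75574986 for Kit and chr10:100015571-100015820 for Kitl. RefSeq lists 2 starts for Kit, and the window belongs to the upstream one. Capitals mark GC boxes, GGGCGG or its reverse complement, the motif that SP1 binds.
Kit: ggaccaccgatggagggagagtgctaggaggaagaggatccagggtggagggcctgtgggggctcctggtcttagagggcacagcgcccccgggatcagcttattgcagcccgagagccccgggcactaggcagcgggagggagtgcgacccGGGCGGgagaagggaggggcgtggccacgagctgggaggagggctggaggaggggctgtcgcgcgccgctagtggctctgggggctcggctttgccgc
Kitl: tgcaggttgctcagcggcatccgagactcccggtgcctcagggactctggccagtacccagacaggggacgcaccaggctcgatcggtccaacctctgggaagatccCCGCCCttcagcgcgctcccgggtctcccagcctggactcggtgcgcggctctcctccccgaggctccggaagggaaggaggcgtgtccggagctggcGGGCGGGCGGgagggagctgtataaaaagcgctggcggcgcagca
The Kit window held 1 GC box, which began 98 bases before the start. The Kitl window held 3, of which the nearest pair overlapped, beginning 45 and 41 bases before the start. GC boxes were found in 32.7% of the 32851 RefSeq windows of the same length, searched on both strands. The E-box CANNTG, the motif of basic helix-loop-helix factors such as SOHLH1 and SOHLH2, was found in neither window on either strand, against 66.2% of all windows. Both windows were rich in G and C, at 70.8% for Kit and 69.2% for Kitl, where the median window had 52.4%. These are matches of letters and say nothing about binding.

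The targeted gene was read first. One Zbtb16 probe set on U74Av2 had a deposited intensity of 770.2 in WT and 158.1 in Null, a log2 ratio of -2.29. The U74Cv2 probe set read 1156.8 in WT and 510.8 in Null, a log2 ratio of -1.20. Both put the Null array below the WT array. A further U74Av2 probe set, at 50.6 and 16.7, lay under the floor on both arrays and gives no ratio. The floor is the 40th percentile of the chip's values, 98.3 on U74Av2, and a ratio is log2 of Null over WT after the arrays of a chip were scaled to each other.

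Kit, the receptor, had a deposited intensity of 675 on the WT array and 840.5 on the Null array of U74Av2. The Null value was the higher one, and both lay clearly above the floor, at 6.87 times the floor in WT and 8.50 times in Null. After scaling, the log2 ratio was 0.31, or 1.24-fold higher in Null. Kit stood at the 76.1st percentile of all probe sets on the WT array and at the 79.9th on the Null array.

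Kitl, the ligand, had a deposited intensity of 1643 on the WT array and 1536.5 on the Null array. Here the Null value was the lower one. The log2 ratio was -0.11, or 1.08-fold lower in Null. Kitl stood at the 90.8th percentile of all probe sets on the WT array and at the 89.8th on the Null array.

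**Figure D1:**
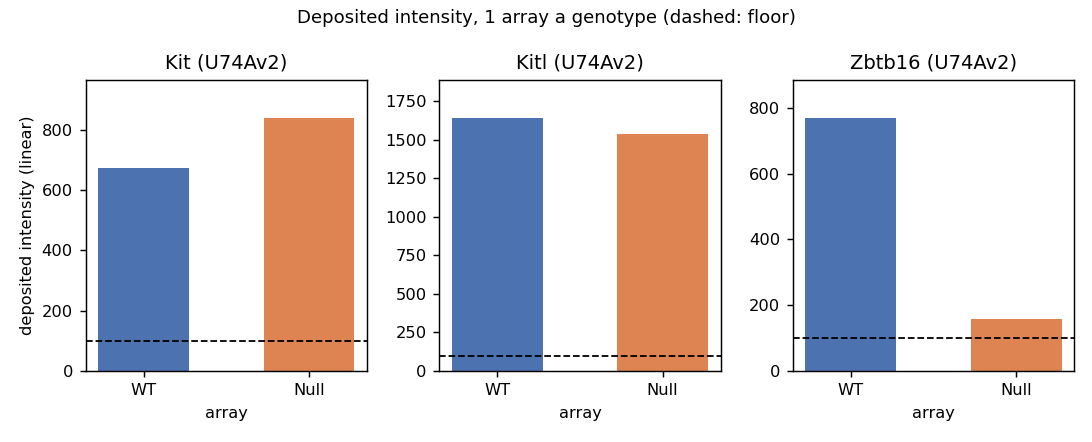
Deposited linear intensity of the Kit, Kitl and Zbtb16 probe sets on U74Av2, 1 bar for the WT array and 1 for the Null array, with the floor of 98.3 as a dashed line. Kit reads 675 and 840.5, Kitl 1643 and 1536.5, and Zbtb16 770.2 and 158.1; no error bar can be given, since each bar is 1 array.

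Neither member was 2-fold different. On U74Av2, 0.332% of the 7822 probe sets above the floor on at least 1 array were at least 2-fold higher in Null, and 0.575% were at least 2-fold lower. These were 26 and 45 probe sets, a split that quantile normalization moved to 32 and 37, and loess on intensity to 32 and 34. A ratio as far up as that of Kit was common. It was reached by 13.4% of the 7082 probe sets above the floor on both arrays, and by 14.5% of the 2360 in the middle of 3 equal intensity classes, where Kit lies. Within that class the lower quartile of the ratios was -0.17 and the upper quartile 0.20. A ratio as far down as that of Kitl was reached by 35.6% of the 7082, and by 31.9% of the 2361 in the brightest class, where Kitl lies.

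**Figure D2:**
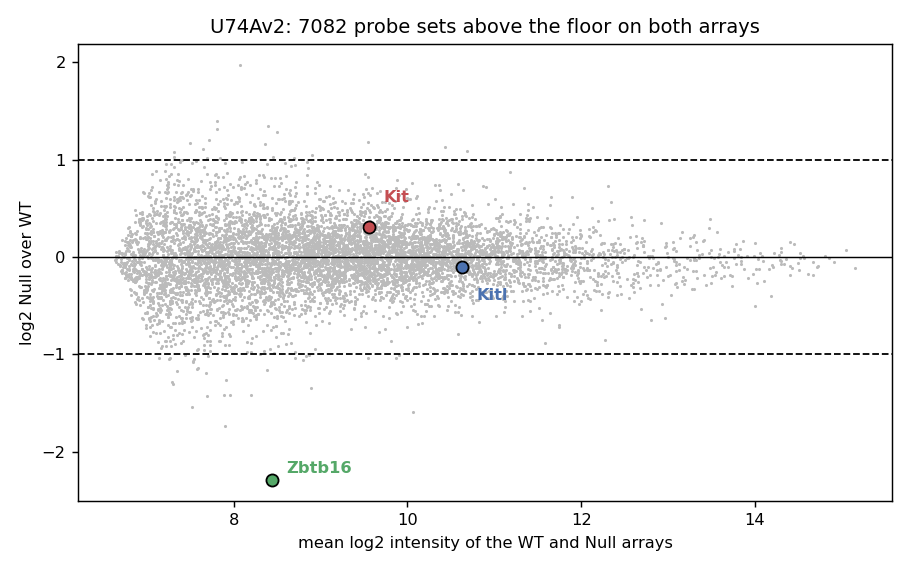
Log2 of Null over WT against the mean log2 intensity of both arrays, for the 7082 U74Av2 probe sets above the floor on both, with dashed lines at 2-fold. Kit at 0.31 and Kitl at -0.11 lie within the cloud of probe sets, and Zbtb16 at -2.29 lies outside it.

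The repeated measurement these arrays offer is that other genes have several probe sets on 1 chip. From pairs of such probe sets, the spread of a single log2 ratio was 0.27 at the intensity of Kit (511 pairs) and 0.16 at that of Kitl (275 pairs). The ratio of Kit was 1.12 times this spread, and that of Kitl was smaller than it. The spread holds technical error and differences between transcripts, and leaves out the spread between animals. Kit and Kitl were also set against each other on the same arrays, which takes out the scaling by any common factor. The ratio of Kit exceeded that of Kitl by 0.41 on the log2 scale, against a spread of 0.32 for a difference of this kind. The receptor and the ligand went opposite ways, with a gap little larger than the spread between probe sets of a gene. Fewer cells of a type and less RNA per cell cannot be told apart in such RNA.

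The genes whose values were most like those of Kit, over these 2 arrays, were Farsb at 671.2 in WT and 834.9 in Null, Wdr26 at 681.9 and 841.3, and Ddost at 675.9 and 854.5. Their distances to Kit, taken over the log2 WT intensity and the log2 ratio, were between 0.01 and 0.02. For Kitl they were Ctsf at 1623.6 and 1522.3, Mrpl27 at 1621 and 1526.4, and Abhd16a at 1671.6 and 1556.6, at distances of 0.02 to 0.03. Likeness over 2 arrays describes an intensity and a ratio and nothing more. On chromosome 5 Kit lies between Pdgfra and Kdr, 2 further receptor tyrosine kinase genes. Pdgfra read 771.7 in WT and 772.9 in Null, a log2 ratio of -0.01, and Kdr read 175.5 and 163.8, a ratio of -0.11. The next gene beyond Kdr, Srd5a3, read 497.3 and 652.3 on U74Bv2, a ratio of 0.39, which is further up than that of Kit. Near Kitl on chromosome 10, Csl read 679.5 and 1018.8 on U74Cv2, a ratio of 0.56, and Dusp6, a phosphatase of MAP kinases, read 448.3 and 448 on U74Av2, a ratio of -0.01. The neighbours showed no common direction with either member.

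Kit signalling was followed through 8 lists of 126 genes, of which 99 had signal above the floor in WT, Null or both. Each gene was taken from its brightest probe set within its chip. Of the 99 genes, 3 were at least 2-fold higher in Null and 4 at least 2-fold lower, with a median log2 ratio of 0.06. Among all 12447 genes treated the same way, 1.46% were at least 2-fold higher and 1.71% at least 2-fold lower, with a median of -0.01. Of the 7 genes past 2-fold, 6 were taken from U74Cv2, the chip with the most 2-fold differences, 452 higher and 435 lower.

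Regulators of Kit were read first. SOHLH2, a helix-loop-helix factor of differentiating spermatogonia that acts on Kit, had its gene Sohlh2 at 780.3 in WT and 813.8 in Null, a log2 ratio of 0.06. Of 15 listed factors acting on Kit, 9 were measured, with a median of 0.06, and Sohlh1 had no probe set with its single symbol. None of the 9 was at least 2-fold higher and 2 were at least 2-fold lower, where 1.71% of all genes were. The 2 were Zbtb16 itself, the targeted gene, and Sall4, a zinc finger factor of germ cells that interacts with PLZF. Sall4 read 2568.1 in WT and 1042.1 in Null on U74Cv2, a ratio of -1.32, while its probe sets on U74Av2 and U74Bv2 gave 0.27 and 0.63. The direction of Sall4 thus depended on the probe set.

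Adaptors and kinases that bind the activated receptor had a median of 0.05 over 18 genes, 10 above 0. One was past 2-fold. Fes, a cytoplasmic tyrosine kinase, read 92.9 in WT, under the floor, and 667.3 in Null, which makes it at least 5.29-fold higher on U74Cv2. Its other probe set, on U74Av2, was under the floor on both arrays, at 78.2 and 78.1. Without U74Cv2 the median of this list was -0.03.

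No gene of the PI3K and AKT arm was 2-fold different, with a median of 0.05 over 18 genes, 11 above 0. Its brightest genes within their chips were Tsc2, an inhibitor of mTORC1, at 0.09, and Foxo3, a transcription factor that AKT keeps out of the nucleus, at -0.13. No gene of the RAS, MAP kinase and STAT arm was 2-fold different either. That median was -0.08 over 12 genes, 6 above 0, and 0.08 without U74Cv2. The kinase gene Rps6ka3 stood at 0.08 and the small GTPase gene Nras at 0.08.

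Inhibitors of the pathway were more often higher than lower in Null. Of 17 measured, 15 had a ratio above 0, with a median of 0.22, where 6042 of all 12447 genes had one. On U74Av2 alone it was 9 of 12, with a median of 0.21. Spred2, which blocks activation of RAF, was the one past 2-fold, at 243 in WT and 515 in Null, a ratio of 1.06. Its other probe sets gave 0.37 and -0.14. Several others were picked out after their values were seen. Cblb, a ubiquitin ligase for tyrosine kinases, stood at 0.70 with 0.13 in a second probe set. Sh2b2 was counted above 0 at 0.42, but its dimmer probe set, also on U74Cv2, gave -1.12, which is 2.18-fold lower. The Sprouty genes Spry2 and Spry1 stood at 0.69 and 0.55, and Socs1, an inhibitor of JAK kinases, at 0.50. Spry4 went the other way, at -0.60 and in a second probe set at -0.20. Ptpn11, the phosphatase SHP2 that also carries the signal forward, read 4179.6 and 3653, a ratio of -0.20. The spread between probe sets of a gene at middle intensity was 0.34 on U74Bv2, the chip of Cblb, Spry1 and Spry2, and 0.48 on U74Cv2, the chip of the Spred2 and Spry4 values.

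Receptor tyrosine kinases close to Kit and their ligands had a median of -0.11 over 11 genes, 8 below 0. Vegfa, a ligand of Kdr, was past 2-fold. It read 327.1 in WT and 88.6 in Null, under the U74Cv2 floor of 124, so it was at least 2.64-fold lower. Its 2 other probe sets were under the floor on both arrays. Of 5 measured proteases that can shed membrane proteins such as Kit or Kitl, none was 2-fold different. Mmp14, a membrane-bound metalloprotease, stood at 0.12 and Adam10, a sheddase, at -0.10.

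**Figure D3:**
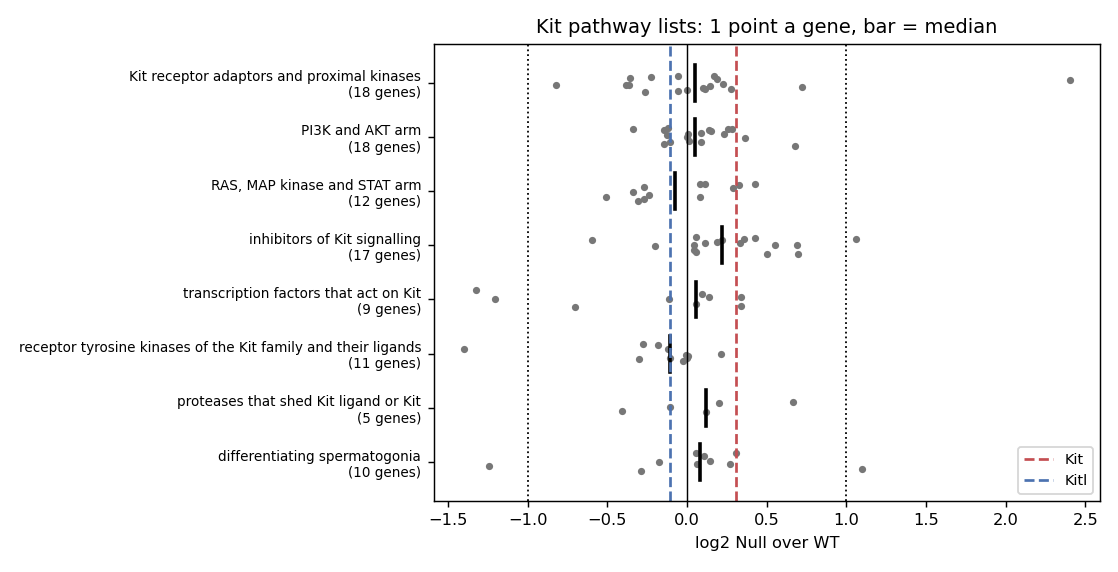
Log2 of Null over WT for the genes of the 8 pathway lists, 1 point a gene from its brightest probe set within its chip, with list medians as black bars, 2-fold as dotted lines, and Kit and Kitl as dashed lines. List medians lie between -0.11 and 0.22, and 7 distinct genes lie past 2-fold; genes under the floor on 1 array are drawn at their bound.

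Other genes of differentiating spermatogonia did not share 1 direction. Stra8, which like Kit is induced by retinoic acid, read 1649.4 in WT and 1469.5 in Null, a ratio of -0.18. Ccnd2, cyclin D2, read 1122.9 and 2412.9, a ratio of 1.09. Prss50, a testis protease, read 293.8 and 102.6, at least 2.37-fold lower with Null under the floor. Dnmt3b, a de novo DNA methyltransferase, stood at 0.31. The list had a median of 0.08 over 10 genes, 7 above 0.

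Markers of the cell types that carry Kit or make Kitl were read beside the members, since the RNA held signal of several. Germ cell genes, 9 of 12 measured, had a median of 0.25 and 6 ratios above 0. On U74Av2, the chip of Kit, all 4 measured germ cell markers were above 0. Dazl, a germ cell RNA-binding protein, read 4287.3 in WT and 6372.8 in Null, a ratio of 0.56. The RNA helicase gene Ddx4 read 513.5 and 761.2, also 0.56, and Dmrt1 read 3413.8 and 4348.8, a ratio of 0.34. The summed intensity of these 4 markers was 8338 in WT and 11627 in Null after scaling, a log2 ratio of 0.48, beside 0.31 for Kit. Dazl and Dmrt1, each counted from its brightest probe set, made up most of both sums. A second, dimmer Dazl probe set gave -0.32. On the other chips a brighter Ddx4 probe set gave 0.25, Mael stood at 0.81 and Mov10l1, of the piRNA pathway, at 0.05. The dimmer probe set of Mov10l1 gave -0.64. Piwil2 stood at -0.05, Sycp3 at -0.48 and the surface protein gene Tex101 at -0.53. The part of germ cell content in the ratio of Kit was not tested.

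Genes of undifferentiated spermatogonia had a median of 0.04 over 17 measured of 22, where that of all genes was -0.01. Of the 17, 1 was at least 2-fold higher and 3 at least 2-fold lower, beside 1.46% and 1.71% of all genes. Each of these was taken from U74Cv2, the chip with the most 2-fold differences. Zbtb16, the targeted gene, was among the lower ones. On U74Av2 the summed intensity of the list was 2774 in WT and 2499 in Null over 10 genes, with 7 ratios above 0 and a median of 0.10. Zbtb16 itself set the direction of that sum. Without it, the sum of the other 9 genes was 2004 in WT and 2342 in Null. Bcl6b, a factor of stem cell maintenance, stood at 1.16, from a U74Cv2 probe set at 160.7 in WT and 365.3 in Null. Utf1, a chromatin factor of undifferentiated cells picked out after its values were seen, had probe sets that disagreed. On U74Av2 it read 80.9 in WT, under the floor, and 374 in Null, at least 3.78-fold higher, which makes up most of the gap between the sums without Zbtb16. On U74Cv2 one Utf1 probe set read 374 and 35, at least 3.01-fold lower with Null under the floor, and another 332.4 and 367.6, a ratio of 0.12. Besides Zbtb16 and Sall4 the lower one was Pou5f1, a pluripotency factor, at least 2.28-fold lower on U74Cv2 and at 0.17 on U74Av2.

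Sertoli cell genes were more often lower than higher in Null. Of 20 genes 19 were measured, with a median of -0.19. Of these, 14 had a ratio below 0, where 6404 of all 12447 genes had one, and 5 had a ratio above 0. Among the 19, 2 were at least 2-fold lower, where 1.71% of all genes were. No test was made. On U74Av2 the summed intensity of 15 genes was 47114 in WT and 40750 in Null, a log2 ratio of -0.21, beside -0.11 for Kitl. Of the 15, 3 had a ratio above 0. Clu and Aard made up most of both sums. Aard read 13733.2 and 12075, a ratio of -0.19, while its U74Cv2 probe set gave -0.005. Dhh stood at -0.20, while its probe sets on U74Cv2 gave 0.57 and 0.35. The Sertoli genes past 2-fold were Rhox5, a homeobox gene, at -1.04, and Tsx, at -1.02. On U74Av2 the brightest, Clu, read 16758 and 14551.7, a ratio of -0.21. On U74Cv2 Defb19 read 92651.2 and 48391.1, a ratio of -0.96, and Amhr2, the receptor of anti-Müllerian hormone, read 79118.6 and 59731.4, a ratio of -0.43. These values were picked out after they were seen, and other probe sets of Amhr2 gave -0.05, 0.37 and -0.57. The 5 genes above 0 were Trf at 0.28, Gata4 at 0.14, Inhbb at 0.12, Sox9 at 0.07 and Gdnf at 0.02. The part of Sertoli cell content in the ratio of Kitl was not tested.

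The Leydig and mast cell lists had lower sums in Null on U74Av2, where Kit was higher. Leydig cell genes summed to 8221 in WT and 6663 in Null over 7 genes, a log2 ratio of -0.30. Most of both sums came from Nr5a1, at 3864.1 and 2989, and Fdx1, at 2714.2 and 2283.3 as deposited. Over all chips 9 of 12 were measured, with a median of -0.17. The Insl3 probe set was under the floor on both arrays, at 56.4 in WT and 21.3 in Null. Cyp11a1, the enzyme that starts steroid synthesis, stood at -0.81, but Hsd17b3, which makes testosterone, stood at 1.20 and Thbs2 at 1.06. Mast cell genes summed to 2172 and 1680 over 6 genes, a ratio of -0.37, with a median of -0.25 over 7 of 10 measured. Of the 7 mast cell genes, the carboxypeptidase gene Cpa3 stood at -0.66, the chymase gene Cma1 at -0.78 and Hdc at -0.34. The tryptase gene Tpsb2 stood at -0.25, and its second measured probe set on U74Av2 gave 0.28. Mcpt1 stood at 0.12, Tpsab1 at 0.01 and the IgE receptor gene Ms4a2 at 0.64 on U74Cv2. With the mean of all measured probe sets of a gene, the mast cell median was 0.01. The part of Leydig and mast cells in the ratio of Kit was not tested. No marker was listed at 0 on any array, which does not show that each was expressed. Fcer1a, for example, was under the floor on both arrays, at 4.2 in WT and 4 in Null.

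The remaining 3 somatic lists held no 2-fold different gene. Macrophage genes had a median of -0.19 over 8 of 9 measured, with Laptm5 at -0.45 and Cx3cr1 at -0.14, and summed to 6474 in WT and 5834 in Null on U74Av2. For the peritubular myoid list, 6 of 8 measured, the median was 0.08, with Mylk at -0.37 and Acta2 at -0.11, and summed to 8474 and 8139. Endothelial genes had a median of -0.08 over 7 of 8, which was 0.02 without U74Cv2, with Eng at 0.12 and Egfl7 at -0.36, and summed to 2018 and 2125.

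**Figure D4:**
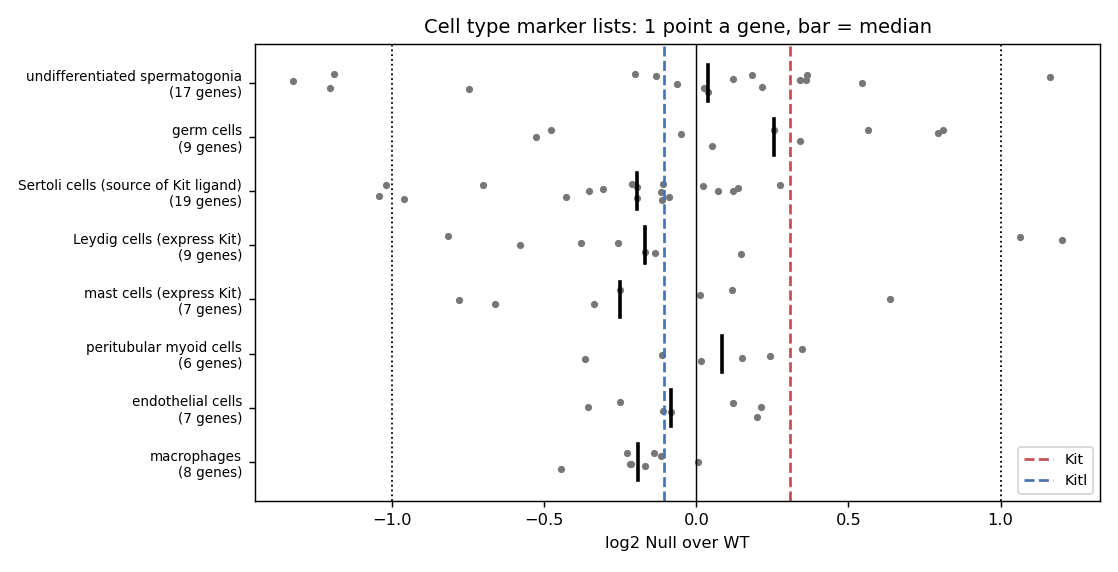
Log2 of Null over WT for the genes of the 8 cell type marker lists, 1 point a gene, with list medians as black bars, 2-fold as dotted lines, and Kit and Kitl as dashed lines. The germ cell median of 0.25 lies near Kit at 0.31, and the Sertoli median of -0.19 lies on the same side of 0 as Kitl at -0.11. The macrophage, Leydig, mast cell and endothelial medians also lie below 0. The part of cell content in either ratio was not tested.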

How the data were processed

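The 6 arrays were grouped by genotype and chip from their titles. The authors deposited linear intensities per probe set, made with software not given in the sources used here. With the outer 2% trimmed at both ends, the mean was 500.1 to 500.3 on each array, as it is after scaling to a common target. Gene symbols came from GEO's platform annotation, and a probe set with several symbols named no gene. After 66 control probe sets per chip were set aside, the Null values were scaled to WT by the median of Null over WT among probe sets above the median of mean rank, which moved U74Av2 by 0.01 on the log2 scale. Values under the 40th percentile were set to it before the log2 ratio was taken. A probe set under this floor on 1 array gives a bound. With 1 array a genotype and chip no test was made. Called genes are those at least 2-fold different.

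The spread came from pairs of probe sets of 1 gene on 1 chip, above the floor on both arrays, as the scaled median absolute difference of their ratios divided by the square root of 2, in 3 intensity classes. Of each list, up to 4 genes past 2-fold were named, or else the 2 brightest, and other names were added after their values were seen. The members and lists were chosen with earlier results of these data known. Python 3.11.15, numpy 2.4.6, pandas 2.3.3, statsmodels 0.14.6 and matplotlib 3.10.9 were used, and the calculations were tested on simulated data.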

Additional observations from a re-analysis of the deposited data

How the results depend on the processing

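The log2 ratio of Kit lay between 0.28 and 0.32 and that of Kitl between -0.12 and -0.10 over 6 alternatives, which were no scaling, quantile normalization, loess on intensity, floors at the 20th and 60th percentiles, and no floor. Both kept their direction and stayed under 2-fold in each, and the gap between them was 0.40 to 0.41. These alternatives cover the processing and say nothing on the spread between animals.

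The count of U74Av2 probe sets at least 2-fold different, 26 higher and 45 lower in Null, depended on the settings. It was 4 and 3 at a threshold of 3-fold and 257 and 317 at 1.5-fold. Alternatives added after the data were seen gave 201 and 481 for the floor of the 20th percentile, 4 and 10 for that of the 60th, and 570 and 1318 for none. Of the genes on any list 13 were past 2-fold, the targeted gene Zbtb16 among them. Over all 12447 genes 1.46% were at least 2-fold higher and 1.71% at least 2-fold lower. The 13 became 18 for the floor of the 20th percentile, 19 for none, and 12 for quantile normalization and for loess. It was 9 without probe sets whose names carry a letter before _at, and 9 with the mean of all measured probe sets of a gene. It was 6 for the floor of the 60th percentile, 6 without U74Cv2 and 6 on U74Av2 alone, an alternative added after the data were seen. Over 10 alternatives the medians of the inhibitor (0.19 to 0.24), germ cell (0.12 to 0.56) and Sertoli (-0.19 to -0.11) lists kept their sign. So did those of the PI3K and AKT, receptor tyrosine kinase, protease, differentiating spermatogonia, Leydig, peritubular myoid and macrophage lists. The median of the endothelial list kept its sign in 4, and that of the RAS, MAP kinase and STAT list in 5. For the adaptor list it was 7, for the list of factors acting on Kit 8, and for the mast cell and undifferentiated spermatogonia lists 9. The cause was not tested. No paired analysis was possible because each genotype had 1 array per chip.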
